A study of Rattus norvegicus with 6 samples.

Results

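The aryl hydrocarbon receptor battery was described in rat mesenchymal stem cells as 7 genes, matched by exact symbol among the 20653 genes of the deposited tables. They are Ahr, the receptor; Arnt and Arnt2, its dimerisation partners; Ahrr and Tiparp, which repress it and are also its targets; and Cyp1a1 and Cyp1b1, classical target enzymes. All 7 passed the filter on low counts, as did 14505 genes in all. Transcripts were measured by RNA sequencing in 3 libraries of NPS-EMSC, mesenchymal stem cells made to overexpress neuropeptide S, and in 3 libraries of EMSC, the cells they were set against. The labels give nasal mucosa as the tissue, SD as the genotype and primary cells for both groups. They give no age, no vector for EMSC, and no word on whether libraries of a group came from separate cultures, so the spread between them may be technical. Effects of gene delivery or of selection cannot be told apart from those of neuropeptide S, a secreted peptide that signals through a G protein-coupled receptor.

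The aryl hydrocarbon receptor is a ligand-activated transcription factor of the bHLH-PAS family. It rests in the cytosol with HSP90 and co-chaperones such as p23, and on binding a ligand moves to the nucleus, where it pairs with ARNT and binds response elements with the core GCGTG. Cyp1a1 is the target most used as a reading of its activity, and the CYP1 enzymes in turn break down many of its ligands. AHRR competes with the receptor for ARNT, and TIPARP marks the receptor with ADP-ribose for breakdown, so that both close a negative feedback loop.

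Depth was alike, at 39082245 to 39511976 reads for the NPS-EMSC libraries and 39314098 to 40261205 reads for the EMSC libraries. Nps, the gene of the overexpressed peptide, had 93566, 77014 and 85916 reads in NPS-EMSC replicates 1 to 3, against 0, 0 and 10 reads in EMSC replicates 1 to 3. No pair of libraries held identical counts (0 pairs). Levels are given in CPM, which scales reads to the library total, and in FPKM, which also divides by gene length and is the unit used to compare genes. Of 7 mesenchymal markers, all were tested, and their summed level was 14339 to 15177 CPM in NPS-EMSC and 14076 to 15378 CPM in EMSC. Single markers differed, with 5 called higher and 2 lower, where 29.7% of all genes tested were called higher and 29.5% lower. Nt5e was 4.45-fold, Thy1 2.92-fold and Eng 1.81-fold higher in NPS-EMSC, and Pdgfra was 1.93-fold lower. The 6 epithelial markers summed to at most 0.181 CPM in an NPS-EMSC library and 0.526 CPM in an EMSC library, and Krt5, Krt14 and Elf3 were at 0 in all NPS-EMSC libraries and Cldn4 in all EMSC libraries. Of the 4 listed markers of the olfactory support cells and glands only Cyp2a3 was analysed here, at 0 in all EMSC libraries and at most 0.0261 CPM in NPS-EMSC. The 4 endothelial markers summed to 1.72 to 2.45 CPM in NPS-EMSC and 1.99 to 2.70 CPM in EMSC, with Cdh5 at 0 in NPS-EMSC.

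The members were chosen by their role in the pathway, but with fold changes of this same comparison known, among them the large decrease of Cyp1a1. Their values are therefore given as a description and without p-values. Of the 7 genes, 3 were called higher and 3 lower in NPS-EMSC at an adjusted p under 0.05 in the quasi-likelihood test of edgeR, where 29.7% of all genes tested were called higher and 29.5% lower (59.3% in either direction). Cyp1a1, counted as lower, passed the filter on low counts only through EMSC. In 6 of the 7 the values of the groups did not overlap, as in 64.7% of all genes tested. The median log2 fold change was -0.01 over the members and -0.0048 over all genes tested. The genes fell into 3 patterns. Cyp1a1 was nearly lost in NPS-EMSC, Ahr and Cyp1b1 were moderately lower, and Tiparp, Arnt2 and Ahrr were slightly higher. In bulk RNA, fewer cells that express a gene and less RNA per cell cannot be told apart.

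**Figure D1:**
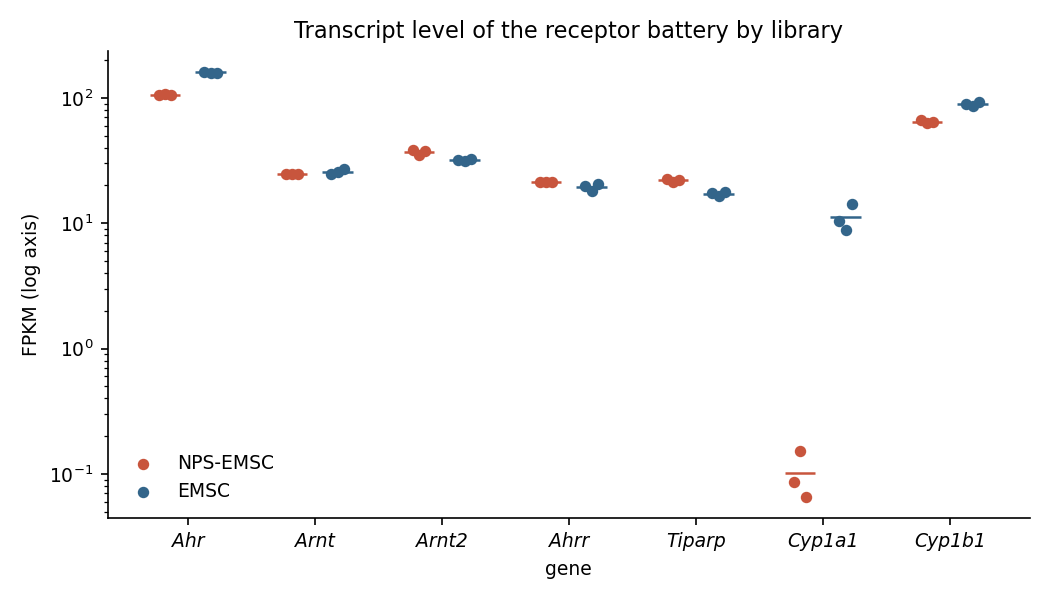
Transcript level in FPKM, on a log axis, of the 7 genes in the 3 NPS-EMSC (red) and 3 EMSC (blue) libraries, with a point per library and a line at the group mean. Cyp1a1 lies between 0.0659 and 0.152 FPKM in NPS-EMSC and between 8.74 and 14.2 FPKM in EMSC, while no other member moved by as much as 2-fold.

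Matches to the core letters of the response element were searched in the promoters of the members. Of the 7 members, 6 had an entry in the RefSeq promoter table of rat assembly GRCr8, and Cyp1a1 had none. The windows searched run from 250 bases before to 50 after each gene's start, and GCGTG was searched on both strands. This core is shared with 1 form of the hypoxia response element bound by HIF1A and ARNT. It occurred 3 times for Ahrr, 2 times for Cyp1b1, 1 time each for Tiparp and Arnt, and not at all for Ahr and Arnt2 (0 matches each). Of all 33469 promoters in the table, 29.7% held the core at least 1 time and 3.59% held it 3 or more times. The longer form TNGCGTG occurred 1 time each for Ahrr and Cyp1b1, and in 4.89% of all promoters. The GC content was 57.3% to 80.3% in the 6 windows and 51.7% in the median promoter. The 250 bases upstream of the start are printed for the 3 target genes with an entry, because their transcripts moved in different directions, with GCGTG, or its reverse complement CACGC, in capitals. They lie on the plus strand of GRCr8 at chr1:30821969-30822218 for Ahrr, chr2:152063519-152063768 for Tiparp and chr6:21094315-21094564 for Cyp1b1.
Ahrr: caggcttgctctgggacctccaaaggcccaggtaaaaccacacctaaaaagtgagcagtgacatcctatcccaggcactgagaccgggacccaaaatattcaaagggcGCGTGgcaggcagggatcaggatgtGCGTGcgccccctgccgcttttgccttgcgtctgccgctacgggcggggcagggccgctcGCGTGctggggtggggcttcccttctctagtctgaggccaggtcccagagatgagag
Tiparp: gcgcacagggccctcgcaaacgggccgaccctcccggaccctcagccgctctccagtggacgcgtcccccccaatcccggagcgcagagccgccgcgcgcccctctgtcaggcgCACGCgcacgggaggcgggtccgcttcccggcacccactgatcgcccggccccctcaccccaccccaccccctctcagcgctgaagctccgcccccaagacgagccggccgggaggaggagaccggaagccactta
Cyp1b1: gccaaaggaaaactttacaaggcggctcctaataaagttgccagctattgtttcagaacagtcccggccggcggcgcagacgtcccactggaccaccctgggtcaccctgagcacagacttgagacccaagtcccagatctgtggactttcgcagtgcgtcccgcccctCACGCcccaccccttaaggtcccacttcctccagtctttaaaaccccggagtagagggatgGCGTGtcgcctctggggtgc
The matches begin 142, 117 and 57 bases before the start for Ahrr, 136 bases before it for Tiparp, and 81 and 20 bases before it for Cyp1b1. A match shows only that the letters are present.

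Ahr, the receptor gene, had the highest FPKM of the members in both groups. It had 104, 107 and 106 FPKM in NPS-EMSC replicates 1 to 3, against 161, 159 and 158 FPKM in EMSC replicates 1 to 3. The values within a group lay close together and the groups did not overlap. The mean was 556 ± 3.84 CPM in NPS-EMSC and 811 ± 7.46 CPM in EMSC (SD, n = 3 each), a log2 fold change of -0.54 (SE 0.04), or 1.46-fold lower in NPS-EMSC. By FPKM the gene ranked 608 of 20653 genes in NPS-EMSC and 376 in EMSC. Among all genes tested, 33% had a larger absolute log2 fold change.

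The partners did not follow the receptor. Arnt, which is expressed in most cell types, had 24.6, 24.8 and 24.6 FPKM in NPS-EMSC and 24.5, 25.4 and 27.1 FPKM in EMSC, and its groups overlapped. Its mean was 111 ± 0.573 CPM in NPS-EMSC and 112 ± 6.18 CPM in EMSC (SD, n = 3 each; log2 fold change -0.01, SE 0.05), and it was the 1 member not called. The estimate turned to 0.03 without EMSC replicate 3, which had the highest Arnt level. Arnt2, the paralog best known from brain and kidney, had 38.5, 35.1 and 37.4 FPKM in NPS-EMSC and 32.2, 31.5 and 32.7 FPKM in EMSC. Each NPS-EMSC library exceeded each EMSC library, and the log2 fold change was 0.25 (SE 0.05). Per length, Arnt2 was thus the more abundant partner in both groups, at 1.56, 1.41 and 1.52 times the Arnt level in NPS-EMSC and 1.32, 1.24 and 1.21 times in EMSC.

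With the receptor lower and the summed partners slightly higher, the ratio of Ahr to Arnt plus Arnt2 in FPKM was 1.72 ± 0.0670 in NPS-EMSC and 2.76 ± 0.102 in EMSC (SD, n = 3 each). The receptor transcript remained in excess of both partner transcripts together in every library. Such ratios are taken within a library and do not depend on its scaling, and they say nothing of protein amounts.

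Both repressor genes were higher where the receptor was lower. Tiparp, which encodes a mono-ADP-ribosyltransferase also called PARP7, had 22.4, 21.2 and 22.2 FPKM in NPS-EMSC, against 17.3, 16.6 and 17.7 FPKM in EMSC. The groups were well apart, and the mean was 94.6 ± 3.24 CPM in NPS-EMSC and 71.9 ± 2.0 CPM in EMSC (SD, n = 3 each; log2 fold change 0.39, SE 0.05). Ahrr, the repressor that lacks the receptor's ligand binding, had 21.4, 21.1 and 21.1 FPKM in NPS-EMSC and 19.8, 18.0 and 20.5 FPKM in EMSC. Its groups did not overlap but were close, with a log2 fold change of 0.17 (SE 0.05). The Ahrr call did not hold without EMSC replicate 2, the lowest of its libraries (log2 fold change 0.12), nor in limma on FPKM values.

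Set against the receptor, the repressors shifted further. The ratio of Ahrr to Ahr in FPKM was 0.206, 0.197 and 0.199 in NPS-EMSC replicates 1 to 3 and 0.123, 0.114 and 0.130 in EMSC replicates 1 to 3. That of Tiparp to Ahr was 0.214, 0.198 and 0.210 in NPS-EMSC and 0.107, 0.104 and 0.112 in EMSC. Neither ratio overlapped between the groups, which had to follow from the FPKM values of Ahr, Ahrr and Tiparp and adds nothing to them.

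**Figure D2:**
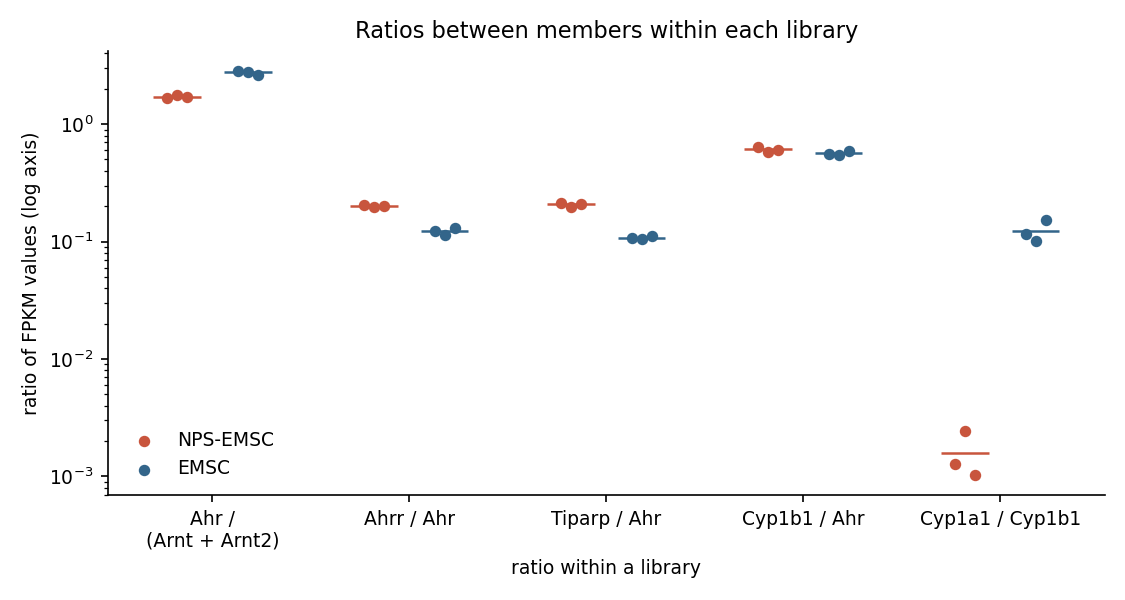
Ratios of FPKM values between members within each library, on a log axis, for 3 NPS-EMSC (red) and 3 EMSC (blue) libraries with a line at the group mean. The receptor to partner ratio is lower in NPS-EMSC, both repressor to receptor ratios are higher, and Cyp1a1 to Cyp1b1 averages 0.00158 in NPS-EMSC and 0.123 in EMSC.

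Cyp1a1, the enzyme gene most closely tied to receptor activity, had few reads left in NPS-EMSC. It had 9, 16 and 7 reads in NPS-EMSC replicates 1 to 3, against 1122, 946 and 1501 reads in EMSC replicates 1 to 3. All NPS-EMSC libraries were far below all EMSC libraries. In FPKM these were 0.0855, 0.152 and 0.0659 in NPS-EMSC and 10.4, 8.74 and 14.2 in EMSC. The level was 0.276 ± 0.122 CPM in NPS-EMSC and 29.4 ± 7.34 CPM in EMSC (SD, n = 3 each). The log2 fold change of -6.50 (SE 0.25) was the third lowest of all genes tested. Cyp1a1 passed the filter on low counts only through EMSC. On log2(FPKM + 1), a scale that understates the change of low genes, the difference was -3.44. The ratio of summed reads, scaled to CPM, was 106 as EMSC over NPS-EMSC, with a 95% counting interval of 75.2 to 156 that covers counting error only.

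Cyp1a1 had the widest relative spread of the members within a group. Its coefficient of variation between EMSC libraries was 25%, against 0.92% to 5.91% for the other 6 genes. Exact Poisson intervals of the EMSC reads were 1057 to 1190 for replicate 1, 887 to 1008 for replicate 2 and 1426 to 1579 for replicate 3, and these do not overlap. In NPS-EMSC the intervals of the 3 libraries overlapped, the lowest being 2.81 to 14.4 reads in replicate 3 and the highest 9.15 to 26.0 reads in replicate 2.

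Cyp1b1, the related enzyme that is common in mesenchymal cells, was reduced far less. It had 66.9, 62.5 and 64.2 FPKM in NPS-EMSC, against 89.8, 86.2 and 93.1 FPKM in EMSC. The groups did not overlap, and the log2 fold change was -0.43 (SE 0.05), or 1.35-fold lower in NPS-EMSC. The ratio of Cyp1b1 to Ahr in FPKM was 0.641, 0.584 and 0.605 in NPS-EMSC and 0.559, 0.542 and 0.590 in EMSC, and these values overlapped. Among the 46 cytochrome P450 genes with a Cyp number, Cyp1b1 had the highest mean FPKM in both groups and held 31.7% of their summed FPKM in NPS-EMSC and 33.6% in EMSC. Cyp1a1 ranked 27 among them in NPS-EMSC and 6 in EMSC. Of the 29 such genes that were tested, 7 were called higher and 16 lower, beside 29.7% and 29.5% of all genes tested. The 16 include Cyp1a1, Cyp1a2 and Cyp2s1, which passed the filter on low counts only through EMSC. Other P450 genes that passed through a single group were not counted.

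**Figure D3:**
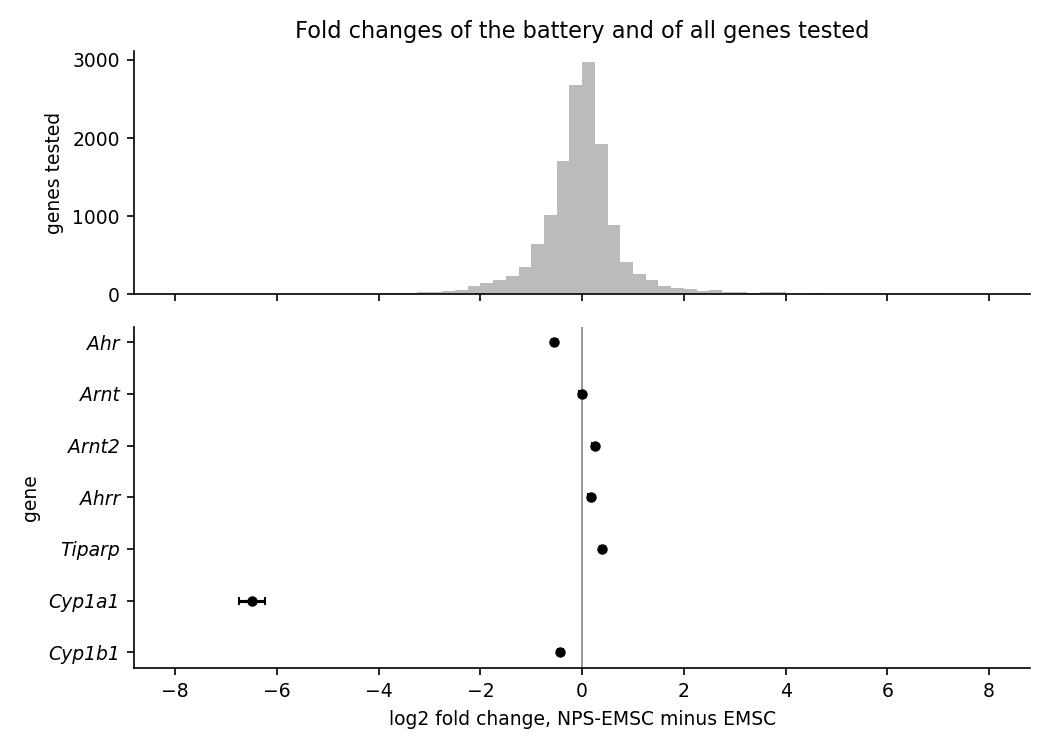
Lower panel, the log2 fold change (NPS-EMSC minus EMSC) of each member with its standard error; upper panel, the number of the 14505 genes tested in each bin of that fold change, values beyond the axis being counted in the outermost bins. Cyp1a1 at -6.50 lies in the far left tail and the other 6 members lie in the centre of the distribution.

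In the order of levels, Ahr was followed by Cyp1b1, Arnt2 and Arnt in both groups by mean FPKM. Next came Tiparp (21.9 ± 0.638) and Ahrr (21.2 ± 0.195) in NPS-EMSC, whose values overlapped, and Ahrr (19.5 ± 1.28) and Tiparp (17.2 ± 0.565) in EMSC, whose values did not (SD, n = 3 each). Cyp1a1 was last in both groups, at 0.101 ± 0.0453 FPKM in NPS-EMSC and 11.1 ± 2.80 FPKM in EMSC.

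The other genes of the pathway were taken from 7 lists with 66 genes, of which 57 were tested. Of these, 15 were called higher and 21 lower in NPS-EMSC, which is 36 of 57 against the 59.3% called among all genes. Their median log2 fold change was -0.04. Adjusted p-values given here are those of edgeR's quasi-likelihood test over all genes tested. The lists were drawn up with earlier results of this comparison known and the genes named are mostly those with the smallest p, so these p-values are no independent evidence about the pathway.

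**Figure D4:**
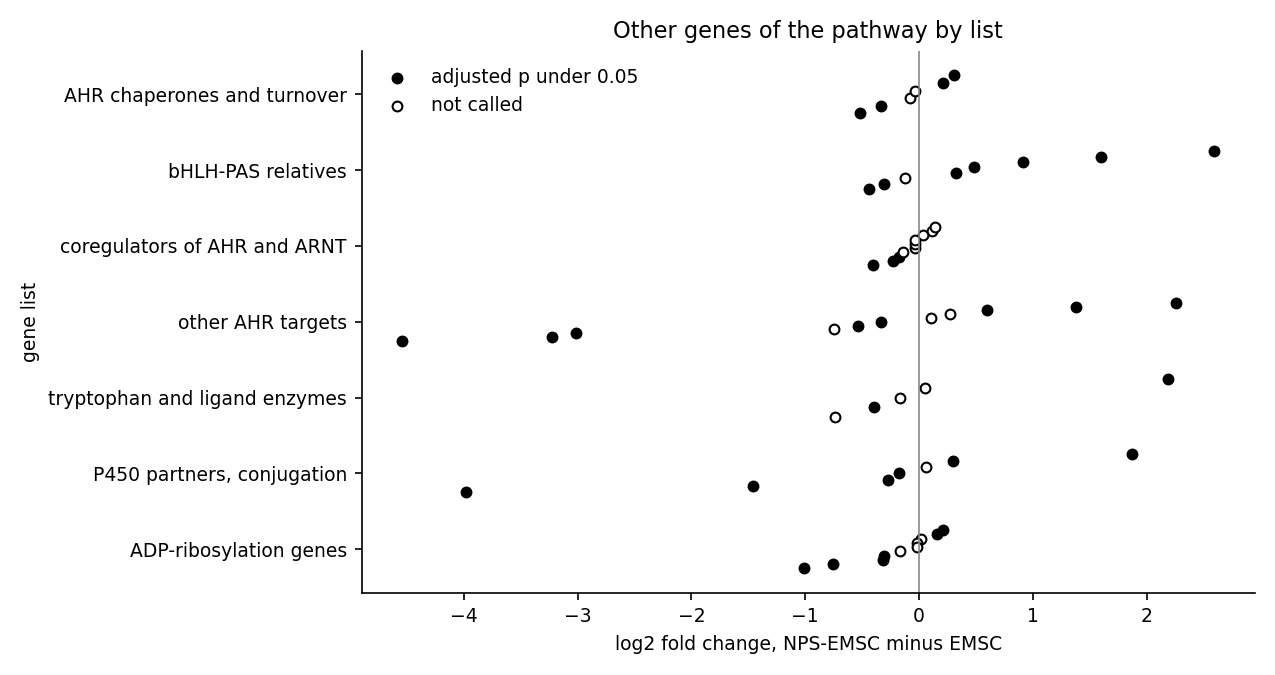
Log2 fold change (NPS-EMSC minus EMSC) of the 57 tested genes of the 7 pathway lists, with filled points for an adjusted p under 0.05 and open points for genes not called. Targets and conjugation enzymes spread to both sides, down to -4.54 for Aldh3a1, while the 10 coregulators stay between -0.40 and 0.14.

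Further targets of the receptor split. Of 11 tested, 3 rose and 5 fell, with a median log2 fold change of -0.34, where 29.7% of all genes tested rose and 29.5% fell. Aldh3a1, an aldehyde dehydrogenase of the classical battery, had 26.1, 29.2 and 22.4 CPM in NPS-EMSC, against 611, 545 and 656 CPM in EMSC. It fell in every NPS-EMSC library (log2 fold change -4.54, SE 0.11, adjusted p = 1.64e-10). Cyp1a2, the third CYP1 gene and a close relative of Cyp1a1 in sequence, was barely expressed, with 1, 0 and 0 reads in NPS-EMSC and 17, 22 and 22 reads in EMSC. The ratio of its summed reads, scaled to CPM, was 58.2 as EMSC over NPS-EMSC (95% counting interval 10.1 to 2335). It passed the filter on low counts only through EMSC, and a filter of 1 CPM in 3 libraries removes it. Cyp2s1, a P450 gene induced by receptor ligands and named after its values were seen, had 0, 1 and 4 reads in NPS-EMSC and 29, 31 and 26 reads in EMSC. It too passed only through EMSC. Both are among the 5 counted as lower, and without them, under the filter of 1 CPM, 3 fell. Gsta1, an alpha-class glutathione transferase gene, fell by 0.54 on the log2 scale to 212 ± 11.0 CPM in NPS-EMSC, against 308 ± 6.20 CPM in EMSC (SD, n = 3 each; adjusted p = 2.12e-10). Reads of alpha-class genes may be split among near-identical copies. Xdh, the xanthine dehydrogenase gene, also named after its values were seen, was the other member that fell (log2 fold change -0.34, SE 0.05).

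The targets that rose were Nqo1, Serpinb2 and Ugt1a6. Nqo1, a quinone reductase gene that answers to both the receptor and NRF2, had 1650, 1325 and 1564 CPM in NPS-EMSC, against 575, 552 and 616 CPM in EMSC. Its log2 fold change was 1.38 (SE 0.07, adjusted p = 2.86e-10), opposite in direction to Cyp1a1. Serpinb2, a plasminogen activator inhibitor gene, was at 5.83 ± 0.282 CPM in NPS-EMSC and 1.18 ± 0.118 CPM in EMSC (SD, n = 3 each; log2 fold change 2.26, SE 0.21, adjusted p = 1.01e-09). Ugt1a6, a glucuronosyltransferase gene named after its values were seen, had 37.4, 40.8 and 38.1 CPM in NPS-EMSC and 26.0, 25.6 and 25.4 CPM in EMSC (log2 fold change 0.60, SE 0.07). Genes of the Ugt1a locus share their last exons, and the counting could have split those reads. Nfe2l2, which encodes NRF2, was at 228 ± 9.81 CPM in NPS-EMSC and 212 ± 2.57 CPM in EMSC (SD, n = 3 each) and was not called (log2 fold change 0.10, adjusted p = 0.0515), but it was with DESeq2 (adjusted p = 0.0387).

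**Figure D5:**
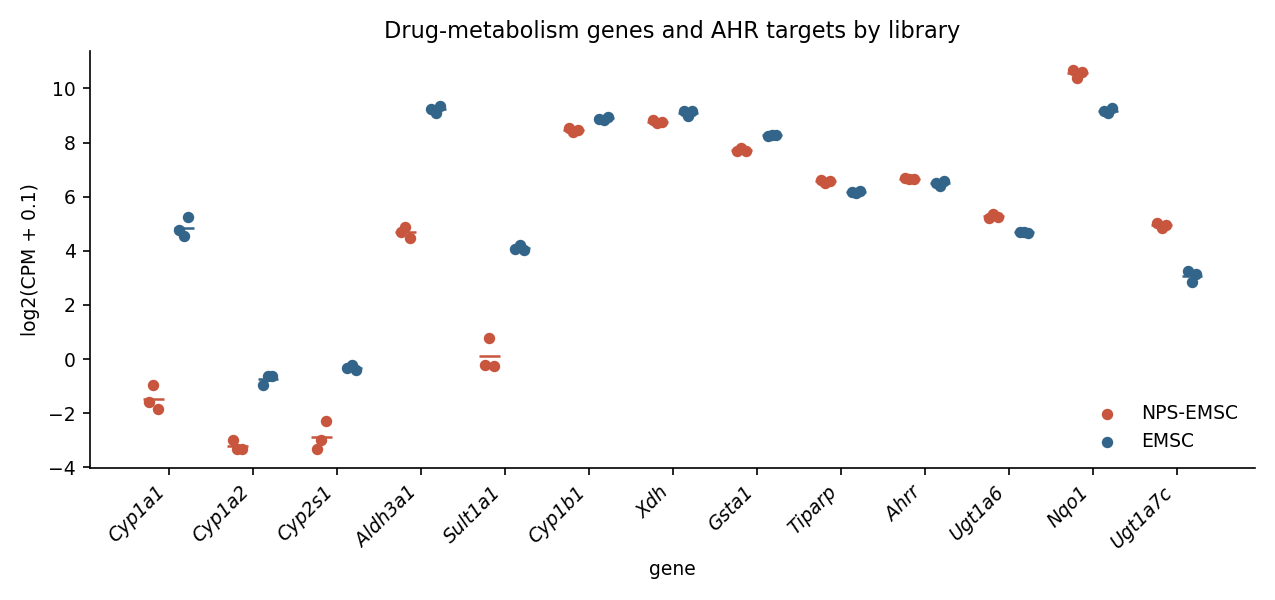
Level of the target and conjugation genes as log2(CPM + 0.1) in the 3 NPS-EMSC (red) and 3 EMSC (blue) libraries, with a line at the group mean. Cyp1a1, Cyp1a2, Cyp2s1, Aldh3a1 and Sult1a1 are far lower in NPS-EMSC, whereas Nqo1, Ugt1a6 and Ugt1a7c are higher.

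Partners of the P450 enzymes and conjugating enzymes also moved both ways, with a median log2 fold change of -0.18. Of the 7, 2 were higher and 4 lower, beside 29.7% and 29.5% of all genes tested. Cyb5a, the cytochrome b5 that feeds electrons to P450 enzymes, fell to 49.5 ± 2.03 CPM in NPS-EMSC, against 136 ± 5.98 CPM in EMSC (SD, n = 3 each; log2 fold change -1.46, SE 0.05, adjusted p = 6.63e-18). Sult1a1, a phenol sulfotransferase gene, had 29, 63 and 29 reads in NPS-EMSC and 687, 755 and 650 reads in EMSC (log2 fold change -3.98, SE 0.20, adjusted p = 3.69e-13). Ugt1a7c rose with a log2 fold change of 1.87 (SE 0.10, adjusted p = 4.85e-14), under the same limit on shared exons. Por, the reductase on which all microsomal P450 enzymes depend, was at 71.7 ± 1.79 CPM in NPS-EMSC and 68.8 ± 2.59 CPM in EMSC (SD, n = 3 each) and was not called (log2 fold change 0.06, adjusted p = 0.337). It was named after its values were seen.

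Among 6 genes of the cytosolic complex and of receptor turnover, 2 rose and 2 fell, beside 29.7% and 29.5% of all genes tested. Their median log2 fold change was -0.06. Hsp90ab1, the constitutive HSP90 gene, had 790, 827 and 789 CPM in NPS-EMSC, against 1144, 1181 and 1123 CPM in EMSC (log2 fold change -0.52, SE 0.04, adjusted p = 2.68e-10). Hsp90aa1, the inducible form, rose instead (log2 fold change 0.31, SE 0.05, adjusted p = 2.97e-06), as did Ptges3, which encodes p23 (log2 fold change 0.21, SE 0.04, adjusted p = 1.39e-04). Cul4b, the ubiquitin ligase scaffold that the receptor can join, fell by 0.33 on the log2 scale (adjusted p = 2.67e-05).

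Other bHLH-PAS genes, several of which also pair with ARNT, moved in both directions. Of 8 tested, 5 rose and 2 fell, with a median log2 fold change of 0.40, where 29.7% of all genes tested rose and 29.5% fell. Those that fell numbered 1 with DESeq2, with limma-voom, at an adjusted p under 0.01 and in fits without EMSC replicate 1, EMSC replicate 3, NPS-EMSC replicate 1 or NPS-EMSC replicate 2, and 3 with upper-quartile factors and with no low-count filter. Hif1a, the hypoxia-inducible partner of ARNT, had 69.2, 64.0 and 68.2 FPKM in NPS-EMSC, against 36.5, 37.1 and 36.7 FPKM in EMSC (log2 fold change 0.91, SE 0.05, adjusted p = 6.90e-15). Relative to Ahr within a library, Hif1a stood at 0.635 ± 0.0335 in NPS-EMSC and 0.231 ± 0.00332 in EMSC by FPKM (SD, n = 3 each). Epas1, which encodes HIF2A and was named after its values were seen, was scarce at 1.87 ± 0.263 FPKM in NPS-EMSC and 2.61 ± 0.289 FPKM in EMSC (SD, n = 3 each) and fell (log2 fold change -0.44). Clock, the circadian partner of BMAL1, rose by 0.32 on the log2 scale (SE 0.06, adjusted p = 2.19e-05). Npas4 and Sim2, known from neurons and from development, rose at low levels, with 3.18 ± 0.497 CPM in NPS-EMSC and 0.485 ± 0.189 CPM in EMSC for Npas4 (adjusted p = 1.92e-07) and 4.89 ± 0.768 CPM in NPS-EMSC and 1.58 ± 0.211 CPM in EMSC for Sim2 (SD, n = 3 each; adjusted p = 7.71e-07).

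Of the 10 coregulators, 3 fell and none rose, where 29.5% of all genes tested fell and 29.7% rose. The number that rose was 0 by edgeR with all libraries and the filter, by DESeq2 and by limma-voom. It was 2 at an unadjusted p under 0.05 in edgeR. The median over the 10 was -0.04 on the log2 scale. In edgeR 1 rose with no low-count filter or without EMSC replicate 3, and 2 rose without EMSC replicate 2 or without NPS-EMSC replicate 2. Ncoa1, a p160 coactivator that binds the receptor and ARNT, fell to 39.4 ± 1.12 CPM in NPS-EMSC, against 52.1 ± 0.675 CPM in EMSC (SD, n = 3 each; log2 fold change -0.40, SE 0.06, adjusted p = 2.82e-06). Ncoa2, of the same family, fell by 0.23 on the log2 scale (adjusted p = 0.00133).

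Genes for making tryptophan-derived ligands were sparse. Of 9 listed, 5 were tested, 1 rose and 1 fell, beside 29.7% and 29.5% of all genes tested. The median log2 fold change was -0.17. Ido2, which opens the ring of tryptophan, had 70, 45 and 49 reads in NPS-EMSC and 13, 7 and 13 reads in EMSC (log2 fold change 2.19, SE 0.44, adjusted p = 1.39e-04). Ido2 passed the filter on low counts only through NPS-EMSC. In limma on FPKM values with the FPKM filter, 0 genes of the list were called higher. Kyat3, a kynurenine aminotransferase gene, fell by 0.40 on the log2 scale (adjusted p = 0.0187), a call lost without EMSC replicate 1 (adjusted p = 0.187) or NPS-EMSC replicate 2 (adjusted p = 0.0722). Ido1, Tdo2 and Kynu were not analysed here.

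Relatives of Tiparp in ADP-ribosylation moved in both directions. Of 10 tested, 2 rose and 4 fell, where 29.7% of all genes tested rose and 29.5% fell. The median log2 fold change was -0.09. Parp11, a mono-ADP-ribosyltransferase gene, fell to 6.13 ± 1.4 CPM in NPS-EMSC, against 10.4 ± 1.45 CPM in EMSC (SD, n = 3 each; log2 fold change -0.75, SE 0.16, adjusted p = 2.0e-04). Parp14 and Parp9, both of the macrodomain group, fell by 0.32 and 0.31 on the log2 scale (adjusted p = 1.45e-05 and 4.60e-05). Zc3hav1, the antiviral zinc-finger relative without enzyme activity, rose by 0.21 (adjusted p = 7.09e-04).

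The profiles most like those of Cyp1a1 and Ahr were taken among 11707 genes as the smallest root-mean-square distance between centred log2 CPM values over the 6 libraries. For Cyp1a1 they included Unc13c, a gene of synaptic vesicle priming, at a distance of 0.29, and the matrix gene Vit at 0.43. Unc13c had 8, 22 and 12 reads in NPS-EMSC and 1143, 1467 and 1470 reads in EMSC. For Ahr they were Aldh6a1, a gene of valine breakdown, at 0.012, Ccni, which encodes cyclin I, at 0.019 and Pdia6, a disulfide isomerase gene, at 0.021. Aldh6a1 had 42.9, 43.7 and 42.8 FPKM in NPS-EMSC and 64.9, 64.3 and 64.9 FPKM in EMSC. With 59.3% of genes called, many profiles share a step between the groups, and likeness over 6 libraries is a description only.

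Among markers of other cells, the summed levels of the leukocyte and macrophage list and of the glial list were lower in NPS-EMSC. Of the 2 endothelial markers tested, none was called (0). Of 5 leukocyte and macrophage markers, all tested, 4 fell and 1 rose, where 29.5% of all genes tested fell and 29.7% rose. Ptprc fell, with 1 read in NPS-EMSC and 94 in EMSC, as did Csf1r, with 5 and 66 reads. These 2 passed the filter on low counts only through EMSC. Cd68 fell (log2 fold change -0.50) and Cd74 rose with overlapping groups (log2 fold change 0.80). The summed level of the list was 8.81 to 11.2 CPM in NPS-EMSC and 54.9 to 68.1 CPM in EMSC. No marker of that list was at 0 in a whole group. Lyz2, the macrophage lysozyme gene, held most of it, with 3.84, 4.78 and 2.90 CPM in NPS-EMSC and 44.9, 60.3 and 52.3 CPM in EMSC. Of 4 glial markers 2 were tested and both fell, and the list summed to 5.75 to 7.0 CPM in NPS-EMSC and 28.7 to 30.6 CPM in EMSC, with none at 0 in a whole group. The part of these cells in the levels of Cyp1a1 and the other members was not tested.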

How the data were processed

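RNA was isolated with TRIzol and made into libraries with a VAHTS Universal V6 kit, per the labels' protocols. The authors deposited raw read counts per gene for 6 libraries, and FPKM values that equal those counts divided by the library total and 1 fixed length per gene, to within 0.1% for all 20653 genes. HISAT2, HTSeq, fastp, R 3.2.0, DESeq and StringTie are listed in the submitters' processing notes. For the build, annotation and strand setting nothing is stated in the labels, and reads of overlapping genes cannot be told apart.

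Counts were tested with edgeR 4.0.16 in R 4.3.3 (glmQLFit, robust; glmQLFTest), with TMM factors and filterByExpr (minimum count 10, minimum total 15), which left 14505 genes. Adjusted p-values are Benjamini-Hochberg over these. Log2 fold changes (prior count 2) are for NPS-EMSC over EMSC. Each SE was derived from the fold change and its F value and is a rough guide for genes with few reads. CPM uses TMM-scaled totals. The procedure was tested on simulated data with 50 genes changed at each size, far fewer than were called here. It recovered 30% of 1.2-fold, 88% of 1.5-fold, 92% of 2-fold and 100% of 4-fold changes. There were 13 false calls among 14273 unchanged genes.

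The members and gene lists were chosen with earlier results of these data known. Named genes are the 7 members, Nps, up to 4 called genes per list by smallest p, a few set genes (among them Nqo1, Nfe2l2, Hif1a, Hsp90ab1 and Cyp1a2) and the 3 nearest profiles of Cyp1a1 and Ahr. As alternatives, DESeq2 1.42.0, limma-voom (limma 3.58.1), limma on log2(FPKM + 1) or log2(FPKM + 0.1) (FPKM of 0.5 or more in 3 libraries, or no filter with a pseudocount of 1), upper-quartile or RLE factors, no filter, 1 CPM in 3 libraries, a block by number, a threshold of 0.01 and fits with 1 library less were run. Protein comparisons were not made, and some of the genes chosen by this rule have no values printed.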

Additional observations from a re-analysis of the deposited data

How the results depend on the processing

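Of the members, Ahr, Arnt2, Tiparp, Cyp1a1 and Cyp1b1 kept direction and call under every alternative fit run. The Cyp1a1 value was -3.44 on log2(FPKM + 1), with or without the filter, and -5.79 on log2(FPKM + 0.1), since a pseudocount pulls the change of a low gene towards 0. The Ahrr call was lost in limma on log2(FPKM + 1), where the value was 0.1208, on log2(FPKM + 0.1), where it was 0.1262, on log2(FPKM + 1) with no filter, where it was 0.1208, and when EMSC replicate 2 was left out, where it was 0.1234. The cause was not tested. Arnt, not called in any fit, turned to 0.0253 without EMSC replicate 3. Over the 6 fits that each left out 1 library, the log2 fold change was -6.84 to -6.28 for Cyp1a1, -0.55 to -0.54 for Ahr, -0.46 to -0.40 for Cyp1b1, 0.38 to 0.42 for Tiparp, 0.21 to 0.29 for Arnt2, 0.12 to 0.21 for Ahrr and -0.0542 to 0.0253 for Arnt. In those fits 2 to 3 members were called higher and 3 lower. No pairing by replicate number was detected, though so few libraries cannot exclude it. Same-numbered deviations correlated at -0.04, 0.05 and 0.04 over the genes tested, and NPS-EMSC replicate 1 correlated best with EMSC replicate 3. With the replicate block 8588 genes were called in place of 8600, and no call of a member changed. List counts of 5 or fewer moved by over 1.5 times in some fits. The targets called lower were 3 with the filter of 1 CPM, which leaves fewer genes tested, and those called higher were 5 with DESeq2 and without NPS-EMSC replicate 1. At 0 to 16 reads a library, Cyp1a1, Cyp1a2 and Cyp2s1 in NPS-EMSC are limited by depth.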
